A study of Schizosaccharomyces pombe with 4 samples.

Results

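The genes for ribonucleotide reductase and its regulators were followed in fission yeast (*Schizosaccharomyces pombe*) with and without the histone methyltransferase gene set2. The 5 genes are defined by their systematic names, a rule that uses no measured value, although it was drawn up with earlier results of these data known. They are cdc22 (SPAC1F7.05), suc22 (SPBC25D12.04), spd1 (SPAC29B12.03), cdt2 (SPAC17H9.19c) and ddb1 (SPAC17H9.10c). These make up 5 of the 6986 genes in the deposited table, and the annotation gives each ID the same symbol. The mutant strain, SPKK1227, has the genotype set2d, a deletion of set2, and the strain it was set against, WT972, is wild type. Each was sequenced as 2 RNA-seq libraries of total RNA from asynchronous log-phase cells grown in YEA medium at 30 °C. The sources used here do not say whether replicates came from separate cultures, whether polyadenylated RNA was selected, or how much of set2 was removed.

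Ribonucleotide reductase converts ribonucleotides to deoxyribonucleotides and so sets the supply of DNA precursors. Its large subunit Cdc22 holds the catalytic and regulatory sites, and its small subunit Suc22 holds the radical that starts catalysis. Spd1 is a small inhibitor that restrains the enzyme and keeps Suc22 in the nucleus outside S phase. In S phase and after DNA damage, the ubiquitin ligase CRL4, with Ddb1 as adaptor and Cdt2 as substrate receptor, marks Spd1 for destruction. The transcription factor complex MBF drives cdc22 and cdt2 at the G1/S transition. RNA levels do not report the stability of Spd1 protein, and the table gives 1 value per gene, so the long and short transcripts of suc22 are not separated.

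Values are the authors' normalized read counts per gene, deposited as log2 and floored at 10. The set2 transcript itself had 2257 and 1448 normalized counts in set2d replicates 1 and 2, against 10503 and 8665 in WT replicates 1 and 2. Across 6633 genes tested with limma, 767 (11.6%) were higher and 184 (2.77%) lower in set2d at a Benjamini-Hochberg adjusted p under 0.05, and the median log2 change was 0.0091. That balance depended on scaling, with 579 higher and 282 lower after quantile normalization and 617 and 343 after equalizing library medians. In set2d replicate 1, the values of all 684 genes (100%) with 10 to 400 normalized counts were whole numbers of steps of 1.06, to within 0.012 of a step. On that step cdc22 rested on 63937 reads and cdt2 on 5091, with counting errors of 0.395% and 1.40%. No single step held in the other 3 libraries, so their depth is unknown.

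By limma, fitted without a block by replicate number, 0 of the 5 genes passed in either direction, where 14.3% of all genes tested did, and 0 passed by limma without a trend. For 4 of them, cdc22, suc22, cdt2 and ddb1, each set2d library was below each WT library, an arrangement found for 26.2% of all genes tested, while the opposite one, found for 31.5%, held for 0 of the 5. For spd1 the groups overlapped. At an unadjusted limma p under 0.05, where 18.6% of all genes tested were higher and 9.62% lower, 0 of the 5 were higher and 1, cdt2, was lower. All 5 were above the floor in all 4 libraries. With 2 libraries against 2, an exact permutation test of a single gene cannot give a p under 0.333, so the tests below are limma's, which share information on spread across genes.

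**Figure D1:**
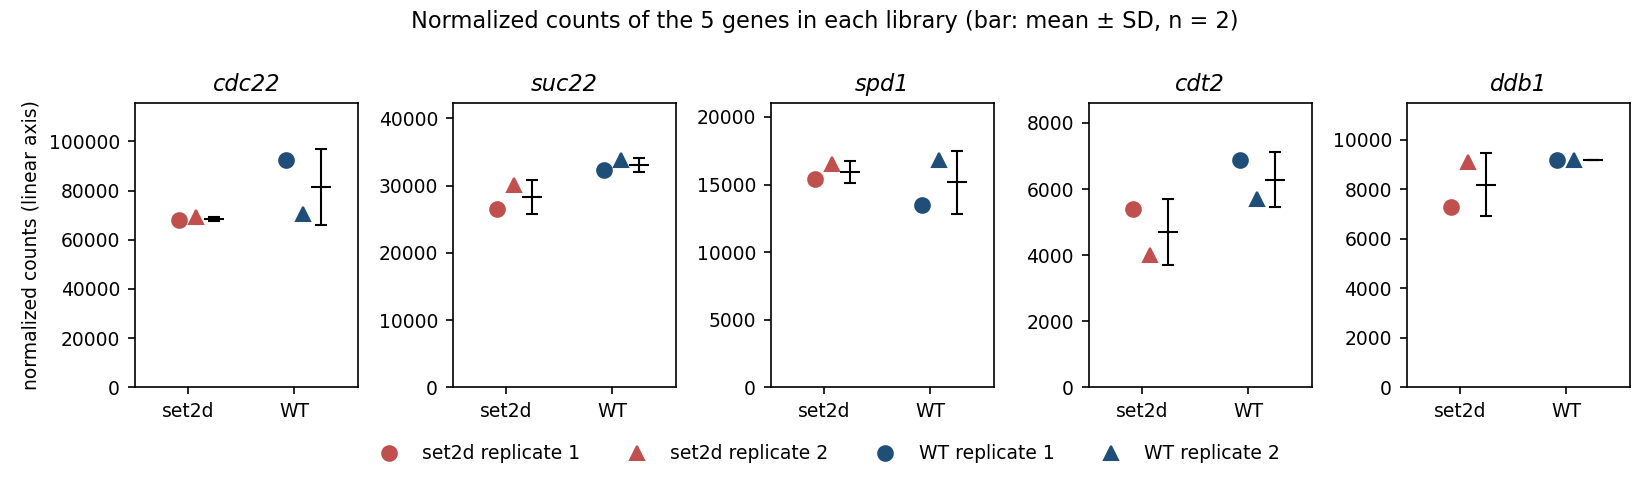
Normalized counts (linear axis, from 0) of cdc22, suc22, spd1, cdt2 and ddb1 in each set2d and WT library, with circles for replicate 1, triangles for replicate 2 and bars for mean ± SD (n = 2). WT replicate 1 stands above the other 3 libraries for cdc22, and set2d replicate 1 stands below the other 3 for ddb1.

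The large subunit transcript cdc22 had the highest level per kb of the 5 in every library. It had 67908 and 69150 normalized counts in set2d replicates 1 and 2, against 92485 and 70494 in WT replicates 1 and 2. The set2d libraries lay close together, and WT replicate 2 was little above them, so that WT replicate 1 alone stood apart. The mean was 68529 ± 879 in set2d and 81489 ± 15550 in WT (SD, n = 2 each). The log2 change was -0.24 (SE 0.14, 95% interval -0.57 to 0.095, limma adjusted p = 0.326). Without WT replicate 1 it was -0.041, and without WT replicate 2 it was -0.43. Of 354 genes whose mean level was within 1 log2 unit of that of cdc22, 36 (10.2%) passed, and the smallest absolute log2 change among those was 0.43.

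The small subunit transcript suc22 had 26467 and 30041 normalized counts in set2d replicates 1 and 2, against 32318 and 33828 in WT replicates 1 and 2. Both set2d values were below both WT values, and set2d replicate 1 was the lowest. The mean was 28254 ± 2527 in set2d and 33073 ± 1067 in WT (SD, n = 2 each). The log2 change was -0.23 (SE 0.11, 95% interval -0.49 to 0.029, limma adjusted p = 0.223). It was -0.14 without set2d replicate 1. Within number 1 the suc22 difference was -0.29 and within number 2 it was -0.17, whereas for cdc22 the same differences were -0.45 and -0.028. The subunits' log2 changes thus had nearly the same mean, but that of cdc22 came from the number 1 libraries and that of suc22 from both.

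The inhibitor transcript spd1 had 15380 and 16529 normalized counts in set2d replicates 1 and 2, against 13500 and 16819 in WT replicates 1 and 2. Both set2d values lay between the WT values. The mean was 15955 ± 812 in set2d and 15159 ± 2347 in WT (SD, n = 2 each), and the log2 change was 0.082 (SE 0.13, 95% interval -0.23 to 0.39, limma adjusted p = 0.738). It was 0.24 without WT replicate 2, -0.077 without WT replicate 1, 0.13 without set2d replicate 1 and 0.030 without set2d replicate 2. The sign also turned after quantile normalization (-0.012) and after equalizing library medians (-0.010). No direction can therefore be given for spd1.

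The gene spd1 is a near neighbour of set2 on chromosome I, with the non-coding RNA gene SPNCRNA.268 as the only gene of the table between them. In the ASM294v3 annotation set2 is on the minus strand, and SPNCRNA.268 and spd1 are on the plus strand. SPNCRNA.268 had 581 and 536 normalized counts in set2d replicates 1 and 2, against 52.7 and 90.0 in WT replicates 1 and 2, which do not overlap. Its log2 change was 3.02 (SE 0.35, limma adjusted p = 0.00114), so the transcript annotated on the set2 side of spd1 rose while spd1 itself did not pass. The call of SPNCRNA.268 was lost without the low-value filter. On the other side of set2, ino80, for a chromatin remodelling ATPase, overlaps set2 from the opposite strand in the ASM294v3 annotation. The overlap covers 5.23% of set2 and 2.95% of ino80. The gene ino80 had 13305 and 15382 normalized counts in set2d, against 9481 and 10082 in WT. Its log2 change was 0.55 (SE 0.12, limma adjusted p = 0.0211), a call that needed all 4 libraries. The ino80 call was also lost by limma without a trend and without the low-value filter. Beyond spd1, the vitamin B6 synthesis gene snz1 had 186396 and 189718 normalized counts in set2d, against 118240 and 129562 in WT. It rose by 0.60 on the log2 scale (SE 0.12, limma adjusted p = 0.0141), a call lost without either WT replicate. The snz1 call was also lost by limma without a trend and without the low-value filter.

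Other neighbours on the spd1 side were SPNCRNA.269 and SPNCRNA.1080, which lie on opposite strands and had log2 changes of 0.41 and 0.40 (limma adjusted p = 0.241 and 0.245). SPNCRNA.269 had 1155 and 1186 normalized counts in set2d replicates 1 and 2, against 945 and 826 in WT replicates 1 and 2. For SPNCRNA.1080 they were 1177 and 1201, against 961 and 844. With counts so nearly equal, these RNAs may share reads and may not be separate measurements, which was not tested. On the ino80 side, the values of SPNCRNA.267 and of the ribosomal protein gene rpl4101 were 0.94 and 0.099 (limma adjusted p = 0.217 and 0.798). SPNCRNA.267 was near the floor of 10, with 58.4 and 36.1 normalized counts in set2d replicates 1 and 2, against 22.1 and 25.8 in WT. Besides set2, 3 of the 8 genes of this stretch were thus higher, and spd1 had the smallest absolute change of the 8. The stretch lies 150 to 200 kb from the right end of the chromosome. Among 122 genes tested at that distance from the ends of chromosomes I and II, 27 (22.1%) were higher, against 8.70% of 4954 genes beyond 200 kb. The other 4 members lie beyond 200 kb. What the change at the set2 locus itself contributes to its neighbours was not tested.

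**Figure D2:**
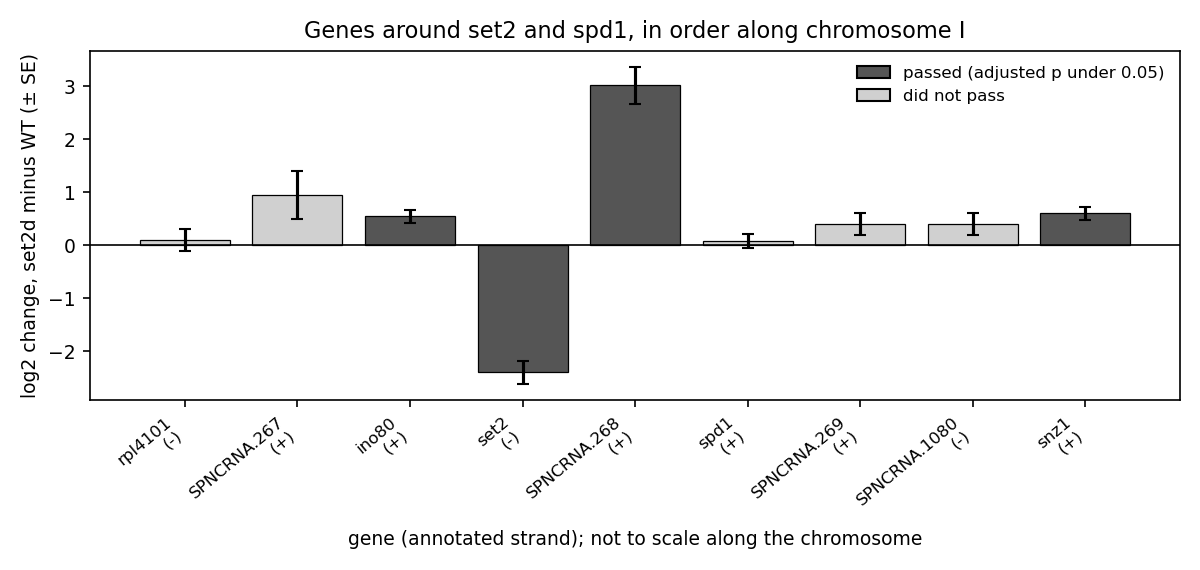
Log2 change (set2d minus WT, bars from 0, with SE) of set2, spd1 and up to 3 genes of the table on each side, in their order along chromosome I and not to scale, with dark bars for genes that passed limma at an adjusted p under 0.05. SPNCRNA.268, between set2 and spd1, stands at 3.02, and spd1 next to it at 0.082.

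The substrate receptor transcript cdt2 had the largest absolute log2 change of the 5, and it did not pass in the fit without a block by replicate number. With that block, given with its limits in the closing section, cdt2 passed. It had 5407 and 4004 normalized counts in set2d replicates 1 and 2, against 6880 and 5688 in WT replicates 1 and 2. Replicate 2 was the lower library in both strains, and the highest set2d value was just under the lowest WT value. The mean was 4706 ± 992 in set2d and 6284 ± 843 in WT (SD, n = 2 each). The log2 change was -0.43 (SE 0.18, 95% interval -0.84 to -0.011, limma unadjusted p = 0.0454 and adjusted p = 0.167), and the interval is not adjusted for the number of genes. It was -0.35 within number 1 and -0.51 within number 2. Without set2d replicate 2 it was -0.21, and without set2d replicate 1 it was -0.64. Of the genes tested, 73.9% had a smaller absolute change. A gene on the same strand, SPAC17H9.18c, covers 9.71% of cdt2 in the ASM294v3 annotation, and with 53.1 and 39.9 normalized counts in set2d and 56.6 and 108 in WT it was far below cdt2. Of the other members, cdc22 lies wholly within the opposite-strand non-coding RNA SPNCRNA.3891 in that annotation, SPNCRNA.6251 covers 30.5% of suc22 from the opposite strand, and ddb1 has 3 such RNAs, of which SPNCRNA.2903 covers the most, 38.4%. These RNAs have no value in the table, and since the strand setting is not given, antisense reads within the members' counts cannot be told apart.

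The adaptor transcript ddb1 had 7289 and 9105 normalized counts in set2d replicates 1 and 2, against 9176 and 9191 in WT replicates 1 and 2. The WT libraries were nearly equal, set2d replicate 2 was just below them, and set2d replicate 1 alone stood apart. The mean was 8197 ± 1284 in set2d and 9183 ± 9.97 in WT (SD, n = 2 each). The log2 change was -0.17 (SE 0.14, 95% interval -0.49 to 0.15, limma adjusted p = 0.465). It was -0.012 without set2d replicate 1 and -0.33 without set2d replicate 2. The genes cdt2 and ddb1 lie near each other on the minus strand of chromosome I.

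**Figure D3:**
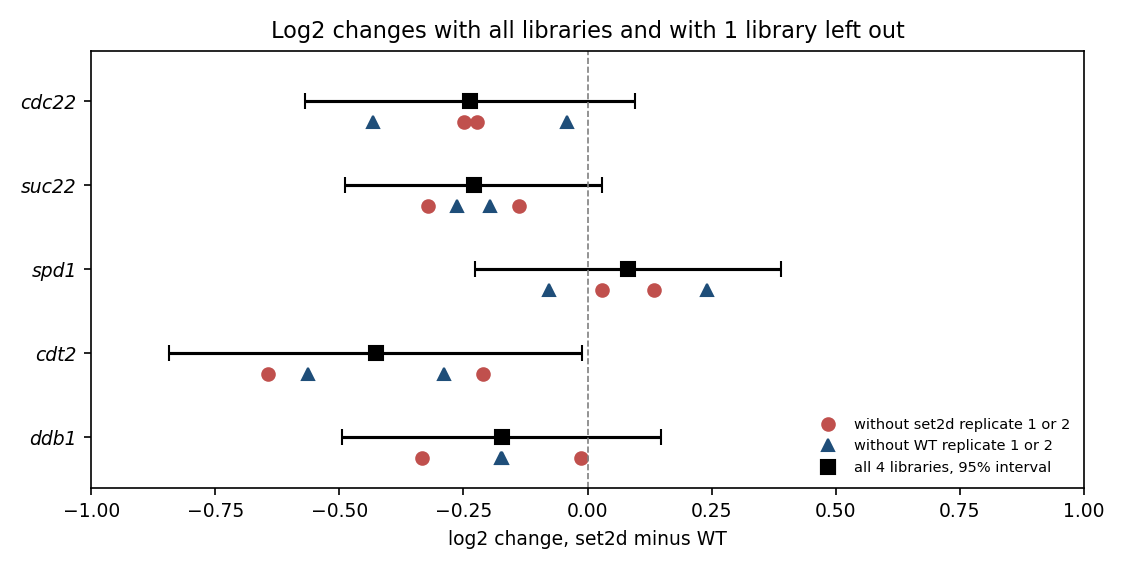
Log2 change (set2d minus WT) of each of the 5 genes with its 95% interval from limma on all 4 libraries (squares), and with 1 library left out (circles, a set2d library; triangles, a WT library). The values of cdc22 and spd1 spread most when a WT library is left out, and those of cdt2 and ddb1 when a set2d library is.

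Levels were compared between genes as normalized counts per kb of annotated transcript. In every library the subunits and spd1 were far above the ligase genes. The level of cdc22 was 25344 ± 325 per kb in set2d and 30137 ± 5751 in WT (SD, n = 2 each). That of suc22 was 19485 ± 1743 per kb in set2d and 22809 ± 736 in WT, and that of spd1 was 20534 ± 1046 in set2d and 19510 ± 3021 in WT. The levels of cdt2 were 2429 ± 512 per kb in set2d and 3244 ± 435 in WT, and those of ddb1 were 2220 ± 348 in set2d and 2487 ± 2.70 in WT. The order from high to low in both WT libraries was cdc22, suc22, spd1, cdt2 and ddb1, with no overlap between neighbours. In both set2d libraries spd1 was above suc22, although the ranges of these neighbours over the libraries overlapped, and cdt2 and ddb1 changed places between the replicates.

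**Figure D4:**
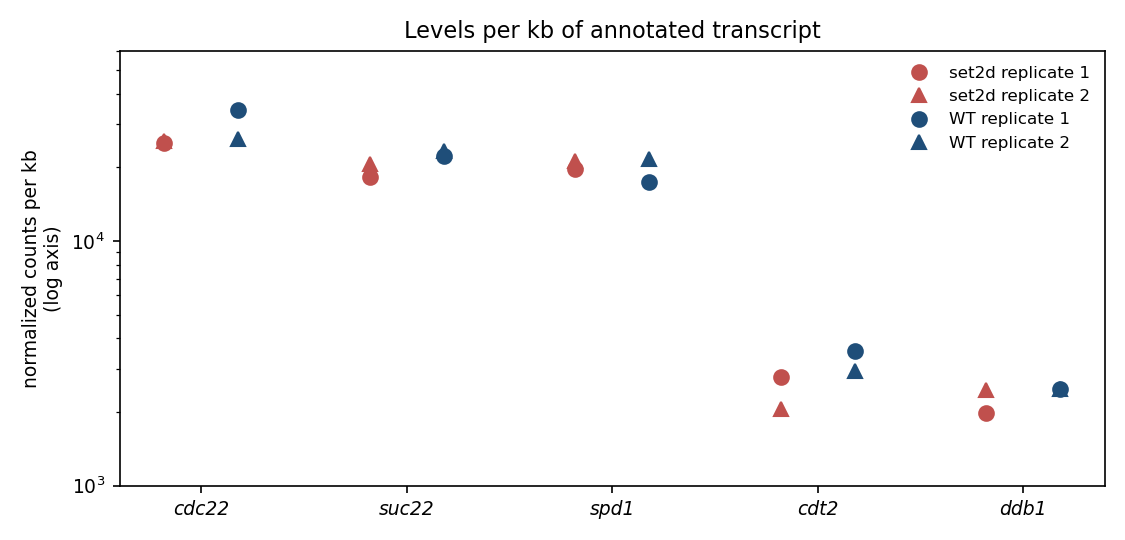
Normalized counts per kb of annotated transcript (log axis) of the 5 genes, with set2d libraries left of WT libraries and circles and triangles for replicates 1 and 2. The genes cdc22, suc22 and spd1 lie between 17374 and 34203 per kb, and cdt2 and ddb1 between 1974 and 3552.

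The balance of the members was followed within each library. The ratio of cdc22 to suc22 per kb was 1.38 and 1.23 in set2d replicates 1 and 2, against 1.53 and 1.12 in WT replicates 1 and 2, so that the groups overlapped. The ratio of suc22 to the inhibitor spd1 was 0.922 and 0.974 in set2d, against 1.28 and 1.08 in WT. It was the only one of 6 ratios of members whose groups did not overlap, and its mean log2 value differed by -0.31 between set2d and WT. How many other pairs of genes separate in this way was not counted. With 2 libraries against 2, even a separated ratio cannot have an exact permutation p under 0.333. The mean log2 ratio of cdc22 to spd1 differed by about as much, -0.32, although its groups overlapped. The ratio of cdc22 to spd1 was 1.27 and 1.20 in set2d, against 1.97 and 1.20 in WT, and that of cdt2 to spd1 was 0.141 and 0.0972 in set2d, against 0.204 and 0.136 in WT. The ratio of ddb1 to cdt2 was 0.707 and 1.19 in set2d, against 0.700 and 0.848 in WT. The ratios were not tested, and they would move with any upstream normalization that treats high and low genes differently.

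Of 65 entries in 8 lists of pathway and cell cycle genes, 63 were found in the table, which are 62 different genes. Of these 62, 2 passed, pgr1 and res2, described below, where 14.3% of all genes tested passed. Beside the unadjusted counts below, 18.6% of all genes tested were higher and 9.62% lower at an unadjusted limma p under 0.05. The COP9 signalosome removes the activating modifier Ned8 from cullins. Among 11 genes for the rest of CRL4, for the signalosome and for Ned8 and its attachment, 0 passed and the median log2 change was 0.0019. At an unadjusted limma p under 0.05 there was 1 lower gene, csn4, at -0.52, and the next largest value was that of ned8 at 0.27. Of 4 genes for partners and other substrates of the ligase, 0 passed, also at an unadjusted limma p under 0.05, and their median was -0.077. The largest values were -0.23 for epe1, a chromatin factor degraded through this ligase, and 0.18 for spd2, annotated in the same inhibitor family as spd1. In that group spd2 had 11260 and 10395 normalized counts in set2d replicates 1 and 2, against 9477 and 9638 in WT replicates 1 and 2, which do not overlap.

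Of 7 other genes of deoxyribonucleotide supply, 0 passed, also at an unadjusted limma p under 0.05, with a median of -0.075. The largest values were -0.27 for hal3 (SPAC15E1.04, annotated as thymidylate synthase) and -0.18 for the dihydrofolate reductase gene dfr1. Of 5 genes for the thioredoxin and glutaredoxin systems, which return electrons to the enzyme, 1 was higher and 0 lower, with a median of -0.0067. At an unadjusted limma p under 0.05, 1 was lower, the glutaredoxin gene grx1, at -0.28. The higher one was the glutathione reductase gene pgr1, with 49227 and 46942 normalized counts in set2d replicates 1 and 2, against 36283 and 33725 in WT replicates 1 and 2. It rose by 0.46 on the log2 scale (SE 0.11, limma adjusted p = 0.0248). The call needed all 4 libraries, and it was lost under quantile normalization and with equal library medians. It was also lost by limma without a trend and without the low-value filter.

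MBF, the factor behind cdc22 and cdt2, was followed through its own genes and 8 further targets. Of 7 genes for MBF and its regulators, 0 were higher and 1 lower, with a median log2 change of -0.053. This was res2, for a DNA-binding subunit, with 2199 and 2579 normalized counts in set2d replicates 1 and 2, against 3651 and 4162 in WT replicates 1 and 2. It fell by 0.71 on the log2 scale (SE 0.17, limma adjusted p = 0.026), and the call needed all 4 libraries. The res2 call was also lost by limma without a trend and without the low-value filter. The values of cdc10 and res1, for the other core subunits, were -0.053 and 0.064, and those of the corepressor genes nrm1 and yox1 were -0.10 and 0.095. Of the 8 further targets, 0 passed (1 higher and 1 lower at an unadjusted limma p under 0.05), and their median was -0.072. Within number 1 the median was -0.19, and within number 2 it was 0.027. The largest values were -0.43 for the replication licensing gene cdc18 and 0.34 for mrc1, for claspin. Thus cdc18 and cdt2 had the same log2 change to 2 decimals, and mrc1 had the opposite sign.

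Cultures were asynchronous, so fewer cells in S phase and less RNA per cell cannot be told apart. Of 9 histone genes, listed to follow S phase, 0 passed (1 higher and 2 lower at an unadjusted limma p under 0.05). Of the 9, 7 had a log2 change below 0, and the median was -0.18. Not every histone gene need peak in S phase, so this median and the sum below may mix genes of different timing. The largest values were -0.39 for hhf1 and -0.32 for hta2, while hhf2 and hht2 went the other way, at 0.31 and 0.24. Histone genes of one class are nearly identical, so reads may be split between copies. Their summed level was 745121 and 905621 normalized counts in set2d replicates 1 and 2, against 862406 and 989230 in WT replicates 1 and 2, which overlap. Of 12 genes expressed in M and G1 phases, 0 passed (1 higher and 0 lower at an unadjusted limma p under 0.05), with a median of 0.084. The sign of that median differed between numbers, with -0.11 within number 1 and 0.22 within number 2. The largest values were 0.30 for adg1, a gene of cell separation, and 0.28 for fkh2, for a forkhead transcription factor. The summed level of the 12 was 276070 and 296564 in set2d replicates 1 and 2, against 286179 and 254351 in WT replicates 1 and 2, again overlapping. The part of cell cycle phase in the values of the 5 genes was not tested.

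**Figure D5:**
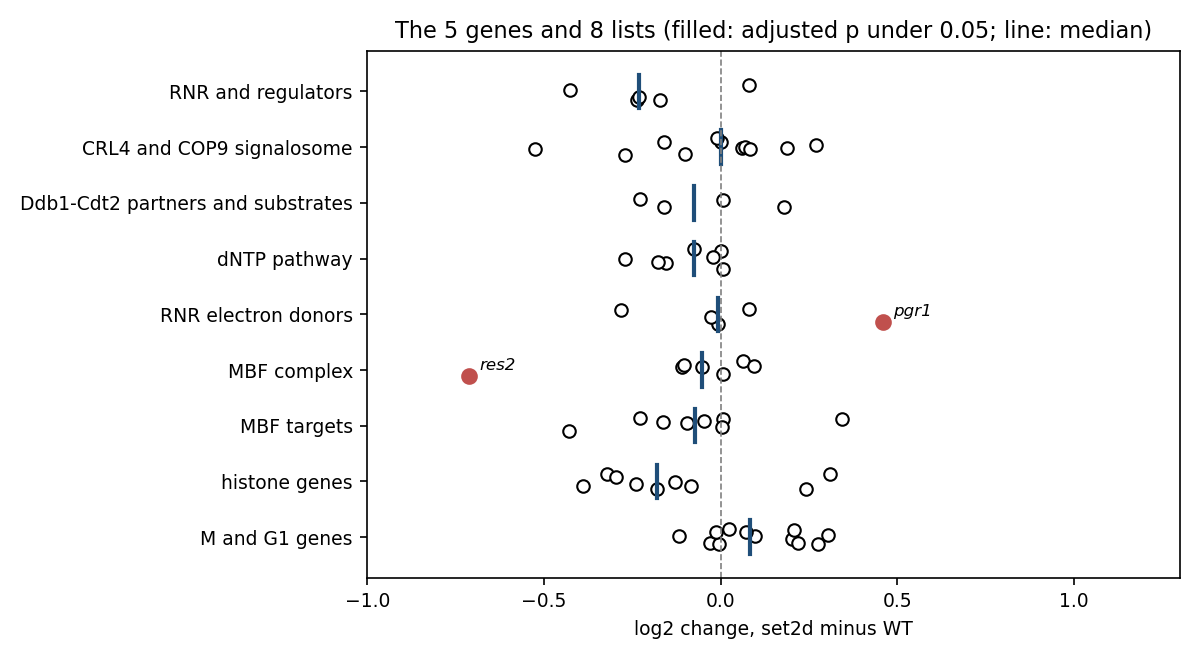
Log2 change (set2d minus WT, each point 1 gene) of ribonucleotide reductase and its regulators and of the genes of the 8 lists, with filled points for genes that passed limma at an adjusted p under 0.05 and lines for medians. Filled are pgr1 and res2, and none of the 5 members.

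Genes with the most similar pattern over the 4 libraries were sought among the 5034 protein-coding genes above the floor in all 4 libraries, as the smallest Euclidean distance between log2 values centred on each gene's mean. For cdc22 these were efr3, the cyclin gene crs1 and mik1, at distances of 0.078, 0.094 and 0.10. The MBF target mik1, for an inhibitor of mitotic entry, had 3201 and 3441 normalized counts in set2d replicates 1 and 2, against 4354 and 3173 in WT replicates 1 and 2. Its peak in WT replicate 1, like that of cdc22, follows from its selection by pattern and says nothing about MBF. For suc22 the nearest were mrx14, prt1 and arb1, all at 0.023 to 0.024, and for spd1 dpe1, sdh8 and rbm8, at 0.037 to 0.052. For cdt2 they were SPAC977.12, rot1 and mrpl37, at 0.035 to 0.062, and for ddb1 oca3, bgs1 and nup120, at 0.028 to 0.038. Among the members themselves the closest pair was suc22 and ddb1, at 0.12, and the most distant was spd1 and cdt2, at 0.76. With 4 libraries such a distance mostly orders genes by small differences.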

How the data were processed

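Per the labels' protocols, total RNA was sequenced on an Illumina HiSeq 2000 instrument. The submitters' processing notes name STAR 2.5.4b, featureCounts 1.5.0-p1 and the build ASM294v2. Annotation, strand setting and normalization method: not given in the sources used here. Per gene and library, the deposited table holds log2 values of the authors' normalized counts, with a lowest value of log2 10 in every column. limma 3.58.1 (R 4.3.3), with a trend of variance on level, was fitted to the 6633 genes above that floor in at least 2 of 4 libraries, leaving out 353. Two-sided p-values were adjusted by Benjamini-Hochberg over these genes, and 0.05 was the threshold. Residual degrees of freedom were 2 and prior ones 6.16. Since separate cultures are not stated, p-values cover only differences between these libraries, which could be technical. Log2 changes are set2d minus WT, and within number 1 or 2 they are the difference of the libraries with that number. Names, neighbours, transcript lengths and distance classes came from the RefSeq annotation of ASM294v3. That build differs from the authors', so no coordinates and no sequences are given. Members and lists were chosen with earlier results of these data known, and 1 entry of the M and G1 list is not reported here. Beyond the members, named genes are set2, the neighbours, overlapping genes, the 3 most similar genes of each member and, in each list, every gene that passed or otherwise the 2 largest changes. The genes cdc10, res1, nrm1, yox1, mik1, grx1, hhf2 and hht2 were added after their values were seen where these do not name them. The 12 alternatives cover scaling, trend, prior, low-value filter, pseudocount, block and single libraries.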

Additional observations from a re-analysis of the deposited data

How the results depend on the processing

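Under 12 alternatives cdc22, suc22 and ddb1 stayed below 0 and did not pass. Their log2 changes ranged from -0.43 to -0.041, -0.32 to -0.14 and -0.33 to -0.012. The sign of spd1 reversed to -0.0120 under quantile normalization and -0.0103 with equal library medians, and it ranged from -0.077 to 0.24 with 1 library left out. The value of cdt2 ranged from -0.64 to -0.21. With a replicate block by number cdt2 had -0.43 and passed (limma adjusted p = 0.00297, against 0.0956 to 0.334 under the other alternatives with all 4 libraries). The p-values of that block fit rest almost wholly on spread shared across genes. For set2 the limma adjusted p went from 0.00041 without the block to 4.1e-71 with it. The pass of cdt2 and the counts with the block therefore cannot be credited to pairing alone. Titles share a prefix by number across strains, whose meaning the labels do not give, so it is not known that numbers pair the libraries. The deviations of same-numbered libraries from their group means had a Pearson r of 0.521 over 6295 genes, which are not independent replicates. The block gave 1380 genes higher, 847 lower and 9 of the listed genes. Without a trend these counts were 499, 103 and 0, and without a filter 177, 21 and 0. Quantile normalization gave 282 genes lower and 1 listed gene, and equal medians 343 lower. With 1 library left out, genes lower numbered 45 to 86, genes higher 324 to 488, and listed genes 0 to 1, where a lone library is assumed to vary like the other group. Equal medians moved the median change of all genes to -0.083 and quantile normalization to -0.075. The cause of the other shifts was not tested. Among genes within 1 log2 unit of a member's level, the smallest absolute log2 changes that passed were 0.38 to 0.43, and the members' own were at most 0.43 in size. For cdt2 the change of -0.427 was larger in size than the smallest that passed near its level, 0.421. Those of the other members were smaller than theirs.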
